A study of Mus musculus with 6 samples.

Results

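The G protein-coupled transmitter receptors described here are the products of 44 genes, chosen by gene symbol from a table of 19251 genes. They comprise 7 metabotropic glutamate receptor genes, 2 GABA-B subunit genes, 11 serotonin receptor genes, 9 adrenergic, 5 muscarinic, 4 dopamine, 4 opioid and 2 cannabinoid receptor genes, and all 44 passed the filter on low counts. Sequencing covered polyadenylated RNA of the substantia nigra, in 3 libraries of C57BL/6 mice on intermittent fasting and 3 of C57BL/6 mice fed ad libitum. Every mouse of both groups carried rAAV-A53T-aSynuclein, a recombinant adeno-associated virus vector for the A53T form of alpha-synuclein, so no library here shows the tissue without the vector. Both diets began 2 weeks after surgery and were kept for 10 weeks, and the fasting mice went without food for 24 hours on each of 3 days a week. The labels give neither the promoter of the vector, the age of the mice and the time since the last fast, nor whether a library came from a single animal. The question, per the design text, is what fasting does to midbrain signalling in this Parkinson's disease model.

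Transmitter receptors of this class sit in the cell membrane, bind a transmitter outside the cell and switch on a heterotrimeric G protein inside it. Receptors that couple to Gs raise cyclic AMP, those that couple to Gi lower it and open potassium channels, and those that couple to Gq release calcium from internal stores through phospholipase C. In the substantia nigra, dopamine neurons are held in check by GABA-B receptors and by Gi-coupled receptors for other transmitters, and the endings of axons that arrive from the striatum carry further receptors. The mRNA of those axonal receptors is made mostly in the cell bodies of origin, outside the nigra. In whole tissue, fewer cells of a type and less RNA per cell cannot be told apart.

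No receptor gene passed the test between the diets. Of 44 receptor genes tested 0 were called by edgeR's quasi-likelihood test at an adjusted p below 0.05, against 0.497% of all 19109 genes tested. At an unadjusted p below 0.05, 4 receptor genes lay higher under fasting, against 8.74% of all genes, and 3 lay lower, against 11.6% of all genes. Both directions together held 7 members, or 15.9%, against 20.4% of all genes. The smallest adjusted p among the members was 0.0755, shared by Grm3 and Oprl1, and the largest was 0.944. Limma-voom called 0 as well, against 0.167% of all genes, with 9 members at an unadjusted p below 0.05, against 20.3% of all genes. DESeq2 called 3 of the 43 members for which it gave an adjusted p, Oprl1 and Adra1a higher and Grm3 lower, a share of 6.98% against 7.4% of all genes by the same test (2.9% higher and 4.51% lower). The median log2 fold change, fasting minus ad libitum, was 0.047 over the 44 genes and -0.0050 over all genes tested. Of the members 23 lay above 0, against 49.1% of all genes, and 21 below, against 50.9%.

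The receptor genes differed more between ad libitum libraries than between fasting libraries. The highest level exceeded the lowest by a median of 1.28-fold among the fasting libraries and 1.76-fold among the ad libitum libraries, against 1.15-fold and 1.24-fold over all genes tested. In 39 of 44 members the ad libitum range was the wider, as it was for 67.4% of all genes. Ad libitum replicate 2 held the highest or the lowest of the 6 values in 32 of 44 members, against 45.8% of all genes. It was the highest in 17, against 23.2%, and the lowest in 15, against 22.5%. It stood at 2 or more times the mean of the other 5 libraries in 7 members, against 2.07% of all genes, and at 0.5 times that mean or less in 7 others, against 3.33% of all genes. Values without that library are given beside many of the results below.

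**Figure D1:**
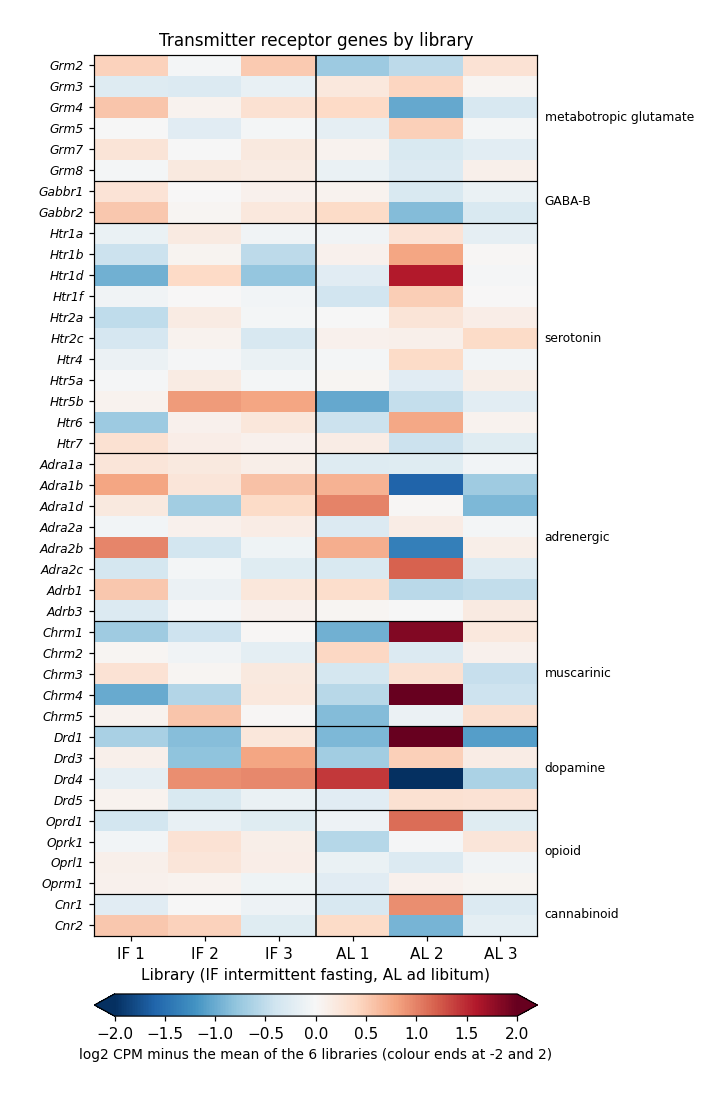
Heat map of 42 receptor genes (rows, grouped by family) in 6 libraries (columns, fasting left of the line). Colour is log2 CPM minus the mean of the 6 libraries, and the strongest colours fall in ad libitum replicate 2, in both directions.

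Total estimated counts ran from 42990234 to 48179706 per library, and levels are given as CPM, counts scaled to library size. Dopamine neuron markers were present in all 6 libraries, with Th, the rate-limiting enzyme of dopamine synthesis, at 105, 189 and 93.7 CPM in fasting replicates 1, 2 and 3 and at 86.3, 92.6 and 236 CPM in ad libitum replicates 1, 2 and 3. Markers of neighbouring regions were uneven. The 5 markers of striatal projection neurons summed to 135 to 191 CPM in the fasting libraries, and to 1000 CPM in ad libitum replicate 2 against 145 and 127 CPM in ad libitum replicates 1 and 3. The 10 markers of thalamic neurons, a list added after the receptor values were seen, summed to 1212 to 2159 CPM in the fasting libraries, and to 2070, 165 and 655 CPM in ad libitum replicates 1, 2 and 3. Not every marker was low in ad libitum replicate 3, where Tcf7l2 had 202 CPM, against 127 to 198 CPM in the fasting libraries. Microglial and oligodendrocyte markers lay lower under fasting: all 7 and all 6 had negative log2 fold changes, with medians of -0.61 and -0.53. Astrocyte markers were mixed, with 5 negative values and 1 positive, that of Slc1a3 (0.18). All 3 markers of oligodendrocyte precursors were negative, but Pdgfra was nearly flat at -0.035. The microglial C1qa fell (adjusted p by edgeR 0.0403). That call ended without ad libitum replicate 3 (0.115), without fasting replicate 1 (0.246), 2 (0.0550) or 3 (0.287), and with no robust shrinkage (0.0503). The part of these markers in the receptor values was not tested.

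Promoter sequence is shown for 3 members, each with a single start in the RefSeq table of build GRCm38.p6: Grm3, the lower member of smallest p, Gabbr2, the most abundant per length of the members low in ad libitum replicate 2, and Chrm4, one of those that were high there. Each run is the 250 bases before the start, 5′ to 3′ on the strand of the gene. Capitals mark the GC box GGGCGG on either strand, the only match among the 3 motifs searched.
Grm3, chr5:9725353-9725602, minus strand: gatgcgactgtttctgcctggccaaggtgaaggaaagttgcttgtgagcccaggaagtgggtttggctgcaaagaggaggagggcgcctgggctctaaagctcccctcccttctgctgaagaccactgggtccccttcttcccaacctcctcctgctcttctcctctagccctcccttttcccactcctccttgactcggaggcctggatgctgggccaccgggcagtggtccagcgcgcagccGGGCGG
Gabbr2, chr4:46991715-46991964, minus strand: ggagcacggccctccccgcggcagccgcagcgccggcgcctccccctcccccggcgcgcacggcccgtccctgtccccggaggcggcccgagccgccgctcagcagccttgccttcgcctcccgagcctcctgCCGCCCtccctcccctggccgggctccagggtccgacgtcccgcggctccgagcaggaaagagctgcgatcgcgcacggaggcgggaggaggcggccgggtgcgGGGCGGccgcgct
Chrm4, chr2:91921939-91922188, plus strand: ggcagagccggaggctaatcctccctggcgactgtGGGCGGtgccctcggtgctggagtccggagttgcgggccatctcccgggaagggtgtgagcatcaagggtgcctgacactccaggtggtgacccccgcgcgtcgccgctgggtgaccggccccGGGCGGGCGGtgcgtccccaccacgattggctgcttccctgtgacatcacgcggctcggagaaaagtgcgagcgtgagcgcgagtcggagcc
The GC box occurred 1 time in the Grm3 window, 2 times in the Gabbr2 window and 3 times in the Chrm4 window, where 2 matches overlap. It was present in 32.7% of all 32851 promoters of the same length and in 23 of the 47 promoters listed for 33 member genes. The cyclic AMP response element TGACGTCA, searched on both strands, was found in 0 of the 47 and in 1.55% of all promoters, and the TATA box TATAAA in 2 of the 47 and in 12.4% of all promoters.

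Metabotropic glutamate receptors include the Gq-coupled Grm5, which excites neurons, and the Gi-coupled Grm2, Grm3, Grm4, Grm7 and Grm8, which mostly dampen transmitter release, Grm3 being also a receptor of astrocytes. Grm3 (ENSMUSG00000003974) had 48.5, 48.4 and 52.3 CPM in fasting replicates 1, 2 and 3, against 67.6, 78.3 and 60.1 CPM in ad libitum replicates 1, 2 and 3. The groups did not overlap, with the 3 fasting libraries within 4 CPM of each other and all below the lowest ad libitum library. The mean was 49.7 ± 2.24 CPM under fasting and 68.7 ± 9.17 CPM ad libitum (SD, n = 3 each), a log2 fold change of -0.47 (SE 0.10, adjusted p by edgeR 0.0755, adjusted p by DESeq2 0.00290). Without ad libitum replicate 2 the log2 fold change was -0.37 (adjusted p by edgeR 0.0894). Astrocyte markers, summed over 6 genes, ran from 2346 to 2673 CPM under fasting and from 2672 to 3593 CPM ad libitum. Their median log2 fold change was -0.24. Single values ran from -1.51 for Gfap and -1.01 for Aqp4 to 0.18 for Slc1a3, the only positive one. The part of astrocytes in the Grm3 value was not tested.

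Grm7, a receptor of presynaptic endings, had 66.5, 55.7 and 64.2 CPM in the fasting libraries, against 58.5, 45.3 and 48.5 CPM in the ad libitum libraries. The groups overlapped at ad libitum replicate 1, and the log2 fold change was 0.29 (SE 0.11, adjusted p by edgeR 0.209). Without ad libitum replicate 1 it was called, as was Htr7 (2 members higher, against 2.29% of all genes higher and 6.18% called in all), at 0.41 (adjusted p by edgeR 0.0462). Grm2 had 24.4, 17.3 and 25.7 CPM under fasting, against 10.8, 12.4 and 21.7 CPM ad libitum, with overlapping groups and a log2 fold change of 0.59 whose SE was 0.30 (adjusted p by edgeR 0.348). Grm8 averaged 15.2 ± 1.34 CPM under fasting and 13.2 ± 1.74 CPM ad libitum, a difference smaller than the sum of these SDs.

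Grm4, strong in cerebellum as background, had 80.3, 57.2 and 67.6 CPM under fasting, against 72.2, 27.0 and 43.7 CPM ad libitum. It was lowest in ad libitum replicate 2, and ad libitum replicate 1 lay inside the fasting range. Its log2 fold change was 0.52 (adjusted p by edgeR 0.491) with all libraries and 0.23 without ad libitum replicate 2, and 0.95 without ad libitum replicate 1. Grm5 had the opposite extreme, with 179 CPM in ad libitum replicate 2 and 111 to 128 CPM in the other 5 libraries, and its log2 fold change was -0.20 with all libraries and 0.012 without that library.

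GABA-B receptors are obligate pairs of Gabbr1, which binds GABA, and Gabbr2, which carries the subunit to the membrane and engages the G protein. These were the most abundant of the 44 members per length of transcript. Gabbr1 averaged 190 ± 17.8 CPM per kilobase under fasting and 161 ± 20.6 ad libitum, and Gabbr2 averaged 78.6 ± 14.0 under fasting and 57.3 ± 25.0 ad libitum. Together they made up 54.3%, 49.9% and 51.4% of the summed per-kilobase level of the members in the fasting libraries, against 51.1%, 40.04% and 47.97% in the ad libitum libraries. Neither passed the test, with log2 fold changes of 0.24 for Gabbr1 (SE 0.11, adjusted p by edgeR 0.287) and 0.46 for Gabbr2 (SE 0.34, adjusted p by edgeR 0.502). Without ad libitum replicate 2 these were 0.15 for Gabbr1 and 0.19 for Gabbr2, and without ad libitum replicate 1 they were 0.34 and 0.85.

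The subunits were not equally steady. Gabbr1 had 1100, 918 and 974 CPM in fasting replicates 1, 2 and 3, against 958, 743 and 836 CPM in ad libitum replicates 1, 2 and 3. Gabbr2 had 541, 384 and 432 CPM under fasting, against 486, 203 and 300 CPM ad libitum. Both were lowest in ad libitum replicate 2, where Gabbr2 was at 0.474 and Gabbr1 at 0.776 of the mean of the other libraries, and in both the groups overlapped through ad libitum replicate 1. The per-length ratio of Gabbr1 to Gabbr2 was 2.23, 2.62 and 2.47 in the fasting libraries and 2.16, 4.01 and 3.06 in the ad libitum libraries.

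**Figure D2:**
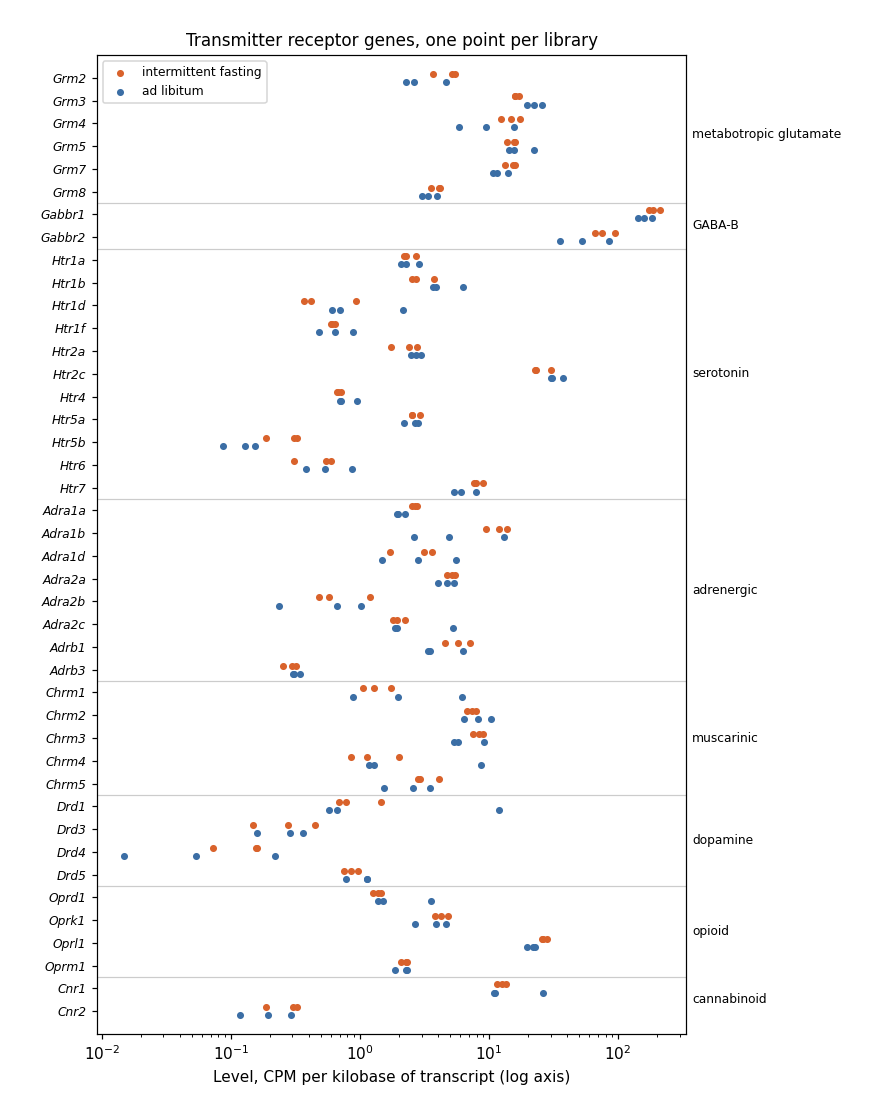
Level of 42 receptor genes in CPM per kilobase of the longest coding transcript (log axis), with each point standing for a library, fasting above ad libitum in each row. Gabbr1 and Gabbr2 lie highest, and the widest spreads belong to Drd1, Chrm4, Chrm1 and Drd4 among the ad libitum libraries.

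Serotonin receptors in the table couple to Gi (Htr1a, Htr1b, Htr1d, Htr1f, Htr5a, Htr5b), to Gq (Htr2a, Htr2c) or to Gs (Htr4, Htr6, Htr7). Of 11 members 0 were called, 3 had a positive and 8 a negative log2 fold change, and the family median was -0.20 with all libraries and -0.051 without ad libitum replicate 2. Htr2c (ENSMUSG00000041380), by far the most abundant of them per length and a receptor of GABA neurons in the nigra, had 111, 146 and 112 CPM in the fasting libraries, against 147, 150 and 182 CPM in the ad libitum libraries. The groups did not overlap, but fasting replicate 2 lay within 1 CPM of ad libitum replicate 1. The mean was 123 ± 20.2 CPM under fasting and 160 ± 19.4 CPM ad libitum, a log2 fold change of -0.38 (SE 0.14, adjusted p by edgeR 0.193), and it was -0.43 without ad libitum replicate 2. Choroid plexus is rich in this receptor as background, and the 6 choroid plexus markers summed to 13.6 to 29.4 CPM in the fasting libraries and to 22.4, 90.6 and 32.0 CPM in ad libitum replicates 1, 2 and 3. That sum, mostly Ttr at 73.1 CPM there, peaked in ad libitum replicate 2, and Htr2c peaked in ad libitum replicate 3. Of the 6 markers Otx2 was the exception, lowest in ad libitum replicate 2 (4.98 CPM) and highest in ad libitum replicate 3 (8.93 CPM). The 3 markers of GABA neurons, Gad1, Gad2 and Slc32a1, summed to 935 to 1251 CPM under fasting and 1139 to 1370 CPM ad libitum, with a median log2 fold change of -0.34. The part of either list in the Htr2c value was not tested.

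Htr5b (ENSMUSG00000050534) had the largest positive log2 fold change among the members, but at a very low level. Its estimated counts were 16, 27 and 28 in fasting replicates 1, 2 and 3, against 8, 12 and 14 in ad libitum replicates 1, 2 and 3. All 3 fasting values lay above all 3 ad libitum values, and the log2 fold change was 1.14 (SE 0.35, adjusted p by edgeR 0.144). Htr1b, a Gi-coupled receptor of axon endings, had 12.8, 17.8 and 11.9 CPM under fasting, against 18.3, 29.8 and 17.5 CPM ad libitum. It was highest in ad libitum replicate 2 and the groups overlapped at fasting replicate 2, with a log2 fold change of -0.62 (SE 0.26, adjusted p by edgeR 0.252) that was -0.34 without ad libitum replicate 2. Htr7 had 27.5, 24.4 and 23.4 CPM under fasting, against 24.4, 16.4 and 18.7 CPM ad libitum, a log2 fold change of 0.34 (SE 0.15, adjusted p by edgeR 0.268) that was called at 0.52 without ad libitum replicate 1 (adjusted p by edgeR 0.0374). The remaining serotonin receptor genes ranged in adjusted p from 0.419 for Htr1d to 0.944 for Htr1a, which averaged 10.7 ± 1.27 CPM under fasting and 10.8 ± 1.89 CPM ad libitum. Tph2, the serotonin-synthesizing enzyme of serotonin neurons, was at most 0.624 CPM in the fasting libraries and at 3.77, 0.640 and 1.20 CPM in ad libitum replicates 1, 2 and 3.

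Adrenergic receptors bind noradrenaline and adrenaline and divide into Gq-coupled alpha-1 (Adra1a, Adra1b, Adra1d), Gi-coupled alpha-2 (Adra2a, Adra2b, Adra2c) and Gs-coupled beta types such as Adrb1. None of 9 was called, with 5 above 0 and 4 below. Adra1a (ENSMUSG00000045875) had 11.8, 11.4 and 10.8 CPM in the fasting libraries, against 8.34, 8.45 and 9.57 CPM in the ad libitum libraries. The groups did not overlap. The gap between the lowest fasting and the highest ad libitum value exceeded the range of fasting libraries but not of ad libitum libraries. The mean was 11.3 ± 0.531 CPM under fasting and 8.79 ± 0.684 CPM ad libitum, a log2 fold change of 0.37 (SE 0.09, adjusted p by edgeR 0.0968, adjusted p by DESeq2 0.0334), and 0.34 without ad libitum replicate 2 (adjusted p by edgeR 0.169).

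Adrb1 had 21.1, 13.4 and 17.0 CPM under fasting, against 18.5, 10.0 and 10.3 CPM ad libitum, with overlapping groups.

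Adra1b varied most between libraries among the alpha-1 types. Its levels were 46.3, 31.6 and 40.0 CPM in the fasting libraries, against 43.2, 8.78 and 16.3 CPM in the ad libitum libraries. Ad libitum replicate 1 lay among the fasting values and the other ad libitum libraries far below them. The log2 fold change was 0.79 (SE 0.60, adjusted p by edgeR 0.514), 0.39 without ad libitum replicate 2 and 1.65 without ad libitum replicate 1 (adjusted p by edgeR 0.0654), so each of these libraries moved the value by more than 1.5 times. Adra2a, the most abundant alpha-2 gene per length, had 22.7, 24.9 and 26.1 CPM under fasting, against 19.5, 26 and 22.9 CPM ad libitum, with interleaved groups.

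Muscarinic receptors bind acetylcholine, and Chrm5 is the member best known from midbrain dopamine neurons. Chrm5 had 4.71, 6.59 and 4.54 CPM in the fasting libraries, against 2.46, 4.13 and 5.6 CPM in the ad libitum libraries, and its groups overlapped (log2 fold change 0.38, SE 0.31, adjusted p by edgeR 0.541, and 0.12 without ad libitum replicate 1). Dopamine neuron markers, summed over 8 genes, were at 792, 1334 and 717 CPM in the fasting libraries and at 810, 756 and 1943 CPM in the ad libitum libraries. Within each diet, Chrm5 and this sum were both highest in the same library, fasting replicate 2 and ad libitum replicate 3. The same was true of Htr2c, Oprl1, Oprk1, Grm8 and Htr5a, so the pattern was not particular to Chrm5. The part of dopamine neurons in the Chrm5 value was not tested. Chrm3 had 38.8, 32.6 and 36.2 CPM under fasting, against 24.8, 39.4 and 23.1 CPM ad libitum. Its groups overlapped only through ad libitum replicate 2, and the log2 fold change was 0.30 with all libraries (adjusted p by edgeR 0.483) and 0.57 (SE 0.09) without that library (adjusted p by edgeR 0.0656). Chrm2 had 45.3, 42.2 and 38.5 CPM under fasting, against 59.3, 36.6 and 46.9 CPM ad libitum, where ad libitum replicate 2 was the lowest of all 6.

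Chrm1 and Chrm4, receptors of striatal and cortical neurons, were far higher in ad libitum replicate 2 than in any other library. Chrm4 had 1.23, 1.64 and 2.88 CPM in the fasting libraries, against 1.69, 12.6 and 1.86 CPM in the ad libitum libraries. Chrm1 had 6.57, 8.07 and 11 CPM under fasting, against 5.50, 39.0 and 12.5 CPM ad libitum. In both genes ad libitum replicates 1 and 3 lay within or next to the fasting range. The log2 fold changes were -1.49 for Chrm4 (SE 0.93) and -1.15 for Chrm1 (SE 0.74) with all libraries, and 0.11 and -0.075 without ad libitum replicate 2.

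The dopamine receptor genes analysed were the Gs-coupled Drd1 and Drd5 and the Gi-coupled Drd3 and Drd4. Drd1, which marks striatal neurons that project to the nigra, had 2.80, 2.45 and 5.18 CPM in fasting replicates 1, 2 and 3, against 2.37, 42.4 and 2.05 CPM in ad libitum replicates 1, 2 and 3. Ad libitum replicate 2 alone was 14.3 times the mean of the other 5 libraries, the largest such ratio among the members. The fitted log2 fold change was -2.17 (SE 1.33, adjusted p by edgeR 0.426), and 0.65 (SE 0.35) without that library (adjusted p by edgeR 0.387). Drd5 had 3.05, 2.36 and 2.67 CPM under fasting, against 2.48, 3.59 and 3.57 CPM ad libitum, with overlapping groups. Drd3 and Drd4 had 11 to 36 and 2 to 29 estimated counts per library, with log2 fold changes of 0.12 and 0.44 (SEs 0.47 and 0.82). Without ad libitum replicate 2 these were 0.38 for Drd3 and -0.076 for Drd4, and without ad libitum replicate 1 they were -0.15 and 1.91.

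Opioid receptors couple to Gi, and Oprl1, the receptor of nociceptin, was the most abundant of the 4 per length. Oprl1 (ENSMUSG00000027584) had 76.9, 84.4 and 78.9 CPM in the fasting libraries, against 65.1, 59.5 and 68.0 CPM in the ad libitum libraries. The groups did not overlap, and ad libitum replicate 2 held the lowest of the 6 values. The mean was 80.1 ± 3.89 CPM under fasting and 64.2 ± 4.31 CPM ad libitum, 1.25-fold higher, with a log2 fold change of 0.32 and an SE of 0.07 (adjusted p by edgeR 0.0755, adjusted p by DESeq2 0.00665). Without ad libitum replicate 2 it was 0.26 (adjusted p by edgeR 0.114). Oprm1, the mu receptor, was the steadiest of all 44 members across the libraries, with 5.64, 5.55 and 5.01 CPM under fasting, against 4.55, 5.62 and 5.54 CPM ad libitum. Oprk1, the kappa receptor, had 17.8, 22.4 and 19.9 CPM under fasting, against 12.4, 18.1 and 21.7 CPM ad libitum. Oprd1, the delta receptor, was at 14.2 CPM in ad libitum replicate 2 and between 5.07 and 6.10 CPM in the other 5 libraries. Among the opioid peptide precursors, Penk, which encodes enkephalin, had 24.2, 42.0 and 37.1 CPM under fasting, against 31.7, 234 and 27.8 CPM ad libitum, and Pnoc, which encodes nociceptin, had 13.6, 11.8 and 13.1 CPM under fasting, against 15.9, 7.19 and 8.23 CPM ad libitum.

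Cannabinoid receptors bind lipid messengers, Cnr1 mainly on neurons and Cnr2 mainly on immune cells. Cnr1 had 67.2, 78.1 and 73.8 CPM in the fasting libraries, against 63.4, 151 and 65.2 CPM in the ad libitum libraries. With ad libitum replicate 2 the log2 fold change was -0.35 (SE 0.37, adjusted p by edgeR 0.642), and without it 0.18 (SE 0.07, adjusted p by edgeR 0.271), with all 3 fasting values above both remaining ad libitum values. Cnr2 rested on 22 to 55 estimated counts per library, at 1.25, 1.18 and 0.725 CPM under fasting, against 1.12, 0.454 and 0.748 CPM ad libitum. Its log2 fold change was 0.44 (SE 0.37, adjusted p by edgeR 0.554), 0.16 without ad libitum replicate 2 and 0.80 without ad libitum replicate 1. The 7 microglial markers summed to 261 to 267 CPM under fasting and to 330, 453 and 420 CPM ad libitum, and their part in the Cnr2 value was not tested.

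**Figure D3:**
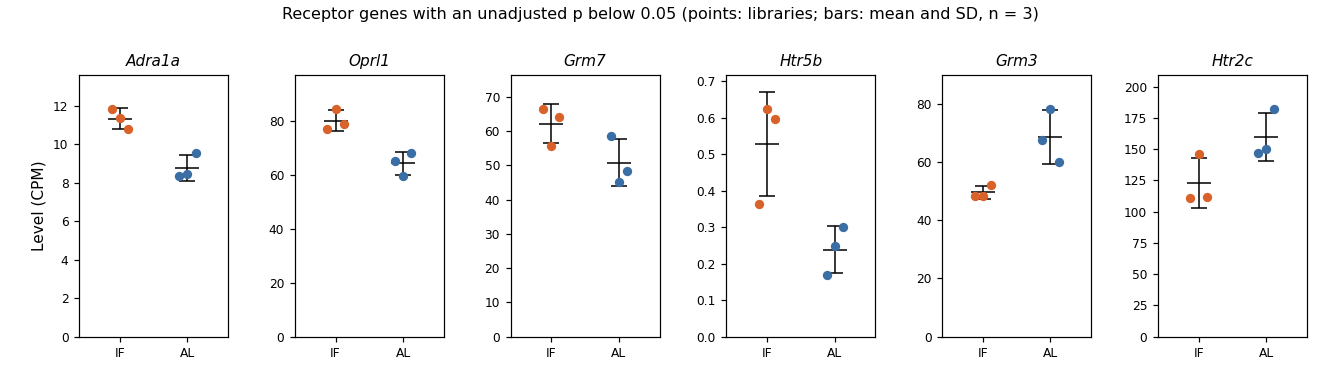
CPM of 6 receptor genes with an unadjusted p below 0.05, fasting left of ad libitum in each panel. Points are libraries and bars show the mean and SD of 3. Adra1a, Oprl1 and Htr5b lie higher and Grm3 and Htr2c lower under fasting without overlap, while Grm7 overlaps, and 0 of the 6 passed adjustment.

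Groups did not overlap in 3 members that lay higher under fasting, Adra1a, Oprl1 and Htr5b, against 12.5% of all genes in that direction. They did not overlap in 3 that lay lower, among them Grm3 and Htr2c, against 15% of all genes in that direction. Both shares, at 6.82% each, were below the background.

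Several members of different families stood out in ad libitum replicate 2. Those at 2 or more times the mean of the other libraries were Drd1, Chrm4, Chrm1, Htr1d, Adra2c, Oprd1 and Cnr1, at 2.17 to 14.3 times that mean, and the striatal marker sum stood at 6.63 times in the same library. Those at 0.5 times or less included Gabbr2, Cnr2, Grm4, Adra2b, Adra1b and Drd4, at 0.111 to 0.474 times that mean, and the thalamic marker sum stood at 0.109 times. The first 7 all had negative and the second 7 all positive log2 fold changes with all libraries. Their medians were -1.01 and 0.44, and 0.071 and 0.16 without ad libitum replicate 2. Both sets were picked by their level in ad libitum replicate 2, so these signs and shifts follow largely from that choice. The 30 other members had 16 log2 fold changes above 0 and 14 below, with a median of 0.047. The summed cholinergic markers were also highest there, at 95.1 CPM against 10.5 to 19.4 CPM elsewhere. Of these 5 genes Isl1 was the exception, with 9.54 CPM in ad libitum replicate 2 and 11.9 CPM in fasting replicate 3. The summed hypothalamic markers were at 534 CPM in ad libitum replicate 2 and 12.8 to 157 CPM elsewhere, and that sum was mostly Pmch at 432 CPM and Hcrt at 71.5 CPM. The 4 others, Avp, Oxt, Trh and Cartpt, were each highest in a fasting library. The part of neighbouring tissue in these receptor values was not tested.

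**Figure D4:**
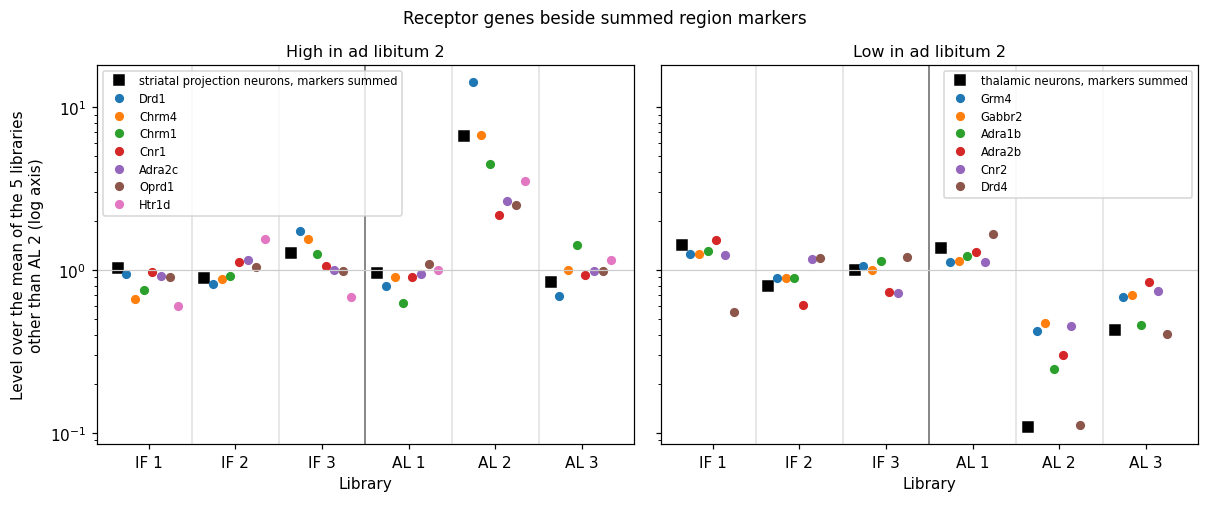
Receptor genes (circles) beside summed region markers (squares) in each library, as a ratio to the mean of the 5 libraries other than ad libitum replicate 2 (log axis). Left, 7 members high in ad libitum replicate 2 with striatal markers, and right, 6 members low there with thalamic markers. The thalamic sum is also low in ad libitum replicate 3, though not every marker in it is.

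Without ad libitum replicate 2, 0 receptor genes were called, against 0.235% of 19172 genes, with 8 at an unadjusted p below 0.05, against 18.5%, and 12 of 44 members changed the sign of their log2 fold change. Among the 12 were Drd1, Chrm4, Cnr1, Adra2c and Grm5. The SE became smaller in 30 of 44 members, and the median SE was 0.21 without that library and 0.25 with it. Of the 42 members reported singly, 27 kept their sign in each of the 6 fits that left out 1 library. Among them were Grm3, Oprl1, Adra1a, Htr2c, Htr5b and Grm7, which had been picked for small p. In all of these but Grm7 the groups did not overlap, so leaving out 1 library could not reverse the sign.

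**Figure D5:**
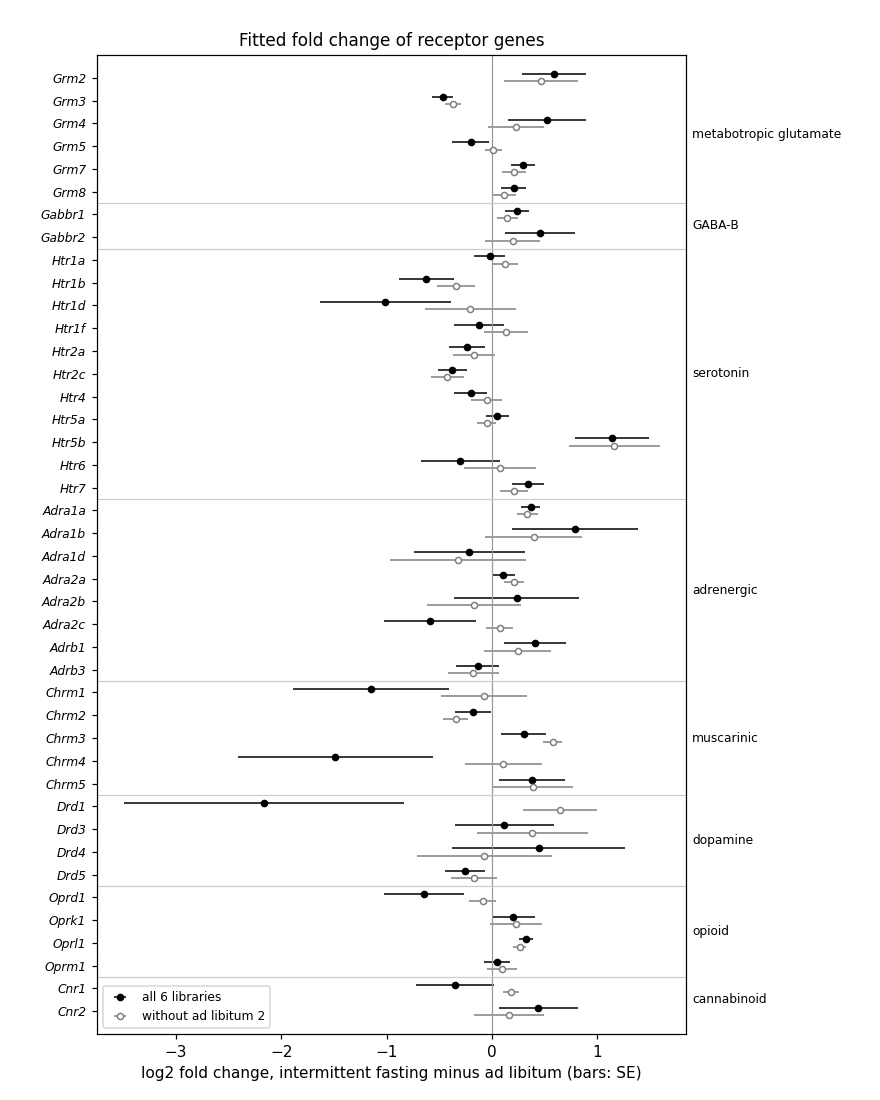
Fitted log2 fold change of 42 receptor genes, fasting minus ad libitum, with SE bars, from all 6 libraries (filled) and without ad libitum replicate 2 (open). Drd1, Chrm4, Chrm1 and Htr1d move furthest between the fits, while Grm3, Oprl1 and Adra1a stay close.

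By coupling, 26 members use Gi, 10 use Gq and 8 use Gs. Of the Gi-coupled members 16 lay above 0 and 10 below, with a median log2 fold change of 0.11, and the median was 0.12 without ad libitum replicate 2. The Gq-coupled members split 5 and 5, with a median of 0.020, which became -0.012 without ad libitum replicate 2. Of the Gs-coupled members 2 lay above 0 and 6 below, with a median of -0.23, which became 0.012 without ad libitum replicate 2, with 4 on each side.

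Downstream of the receptors, 128 genes of signal transduction and transmitter supply in 12 lists were tested. By edgeR 1 rose and 1 fell, 1.56% against the 0.497% of all genes given above. The riser was Rgs11 of the RGS proteins, which speed the shutdown of G proteins. Rgs11 had 25.3, 23.4 and 26.9 CPM in the fasting libraries, against 17.5, 17.1 and 17.5 CPM in the ad libitum libraries. The groups were far apart relative to their spread, and the log2 fold change was 0.54 (SE 0.07, adjusted p by edgeR 0.0422). The gene that fell was Gng11, a G protein gamma subunit abundant in vessels and glia. Gng11 had 11, 14.3 and 11.4 CPM under fasting, against 23.9, 27.3 and 21.4 CPM ad libitum, a log2 fold change of -0.98 (SE 0.13, adjusted p by edgeR 0.0422). Both calls ended without ad libitum replicate 2 (adjusted p = 0.0653 for each), without ad libitum replicate 3 (0.115), without fasting replicate 1 (0.246) and without fasting replicate 3 (0.287). With all 6 libraries both ended in limma-voom (0.0541 for Rgs11 and 0.0545 for Gng11) and with no robust shrinkage (0.0503 and 0.0525). Both stayed called by edgeR with other filters and size factors. DESeq2, which called 7.4% of all genes, called both (adjusted p by DESeq2 3.1e-06 for Rgs11 and 6.1e-08 for Gng11). Over all 6 fits that left out 1 library the log2 fold changes stayed between 0.48 and 0.59 for Rgs11 and between -1.11 and -0.89 for Gng11.

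Of the 128 genes 18 lay higher and 15 lower at an unadjusted p below 0.05, or 25.8% against 20.4% of all genes. At that p the 16 RGS genes had 2 higher and 1 lower, and the 15 beta and gamma subunit genes 2 higher and 4 lower. In the other lists 0 genes were called by edgeR. DESeq2, which called 7.4% of all genes, did call some there. Among them were Gna14 (adjusted p by DESeq2 0.0041), Gna15 (0.0066), Prkar1b (0.0033) and Plcb3 (0.016). Of 13 G protein alpha subunit genes, 4 lay higher and 3 lower at an unadjusted p below 0.05, against the 8.74% and 11.6% of all genes. Gna14, a Gq-class alpha subunit, was at 0.931 ± 0.239 CPM under fasting and 0.281 ± 0.0350 CPM ad libitum (log2 fold change 1.72, SE 0.29, adjusted p by edgeR 0.0602). Gna15 was at 0.997 ± 0.177 CPM under fasting and 2.03 ± 0.219 CPM ad libitum (-1.02, SE 0.20, adjusted p by edgeR 0.0685). Both levels were low, where counting error weighs most, and Gna14 did not exceed 0.321 CPM in any ad libitum library. Of 15 adenylyl cyclase and protein kinase A genes, 4 lay higher and 0 lower at that p, and Prkar1b, a regulatory subunit of protein kinase A, was at 583 ± 24.0 CPM under fasting and 485 ± 19.0 CPM ad libitum (0.27, adjusted p by edgeR 0.0859, and 8.27% of its 31-base words occur in other genes). Among phospholipase C, IP3 receptor and protein kinase C genes 0 of 10 lay higher and 2 lower, and Plcb3 was at 18.3 ± 0.227 CPM under fasting and 24.2 ± 2.96 CPM ad libitum (-0.41, adjusted p by edgeR 0.0895). Receptor kinases and arrestins, which end receptor signalling, had 2 of 7 higher at an unadjusted p below 0.05, led by Grk6 (0.19, adjusted p by edgeR 0.167). The 4 genes of the G protein-gated potassium channels that GABA-B receptors open had 0 in either direction. Kcnj9, of this group, had 146, 91.3 and 122 CPM under fasting, against 135, 37.6 and 67.0 CPM ad libitum, with its lowest value in the library where Gabbr2 was lowest. That library, ad libitum replicate 2, held the lowest value for 22.5% of all genes, and a link between Kcnj9 and Gabbr2 was not tested.

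Of 12 receptor scaffold and auxiliary genes, 2 lay higher and 2 lower at an unadjusted p below 0.05, with Kctd12, an auxiliary subunit of GABA-B receptors, at 67.3 ± 3.82 CPM under fasting and 84.3 ± 8.33 CPM ad libitum (-0.32, adjusted p by edgeR 0.104), and Cnrip1, which binds the tail of Cnr1, at 37.1 ± 2.12 CPM under fasting and 31.5 ± 0.785 CPM ad libitum (0.24, adjusted p by edgeR 0.106). Phosphodiesterases, which break down cyclic nucleotides, had 1 of 13 higher and 2 lower at that p, led by Pde8a (-0.42, adjusted p by edgeR 0.109). The 7 endocannabinoid enzyme genes and the 4 opioid precursor genes had 0 at that p in either direction. Among 12 genes of monoamine and acetylcholine supply 1 lay higher, Ache, the enzyme that breaks down acetylcholine (0.26, adjusted p by edgeR 0.201), and 1 lower, Tph2 (-1.98, adjusted p by edgeR 0.193).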

How the data were processed

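The deposited table holds whole-number estimated counts by gene, unscaled. Salmon, DESeq2 1.40.2 and build GRCm39 (mm39) are named in the submitters' processing notes, with no role or order. The sources used here do not give the Salmon version, the annotation or whether counting used strand. Per the labels' protocols, libraries were made with a directional kit. The smallest sum over the 6 libraries was 60 for any gene and 87 for a receptor gene, and 0 columns were left unused.

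Columns were joined to libraries by the track names in the labels. In edgeR 4.0.16 (R 4.3.3), filterByExpr kept 19109 genes, and libraries were scaled by TMM. The diets were compared by the two-sided quasi-likelihood test with robust shrinkage and Benjamini-Hochberg adjustment over all genes tested, and called at an adjusted p below 0.05. Standard errors are the log2 fold change over the square root of F. Levels are CPM after TMM scaling. Per-kilobase levels divide CPM by the longest coding transcript in GENCODE M21 (GRCm38), so they are approximate for a table of another build. At most 2.03% of the 31-base words of any receptor gene occur in other genes, and 9 receptor genes overlap an exon of an antisense gene. Alternatives used DESeq2 1.42.0 and limma-voom (limma 3.58.1). The script was tested on simulated data with known changes.

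Receptor genes, gene lists and tests were chosen with earlier results of these data known. All receptor genes enter the counts, and 2 of the 44 are not reported here singly. Receptor genes could be named, as could the called genes of each list or, where there were none, the 2 of smallest p; other named genes, such as Th and Isl1, and the thalamic marker list were picked with values in view. The labels do not say that libraries came from separate animals, so p-values measure only the spread between these samples, which may be technical. No pair of libraries agreed within counting noise (smallest chi-square per degree of freedom 8.28). Whether replicate numbers mark pairs could not be decided from 3 libraries per group. Deviations from the group means correlated at 0.35, 0.0183 and -0.155 between same-numbered libraries, and at -0.252 to 0.267 between the others.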

Additional observations from a re-analysis of the deposited data

How the results depend on the processing

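The count of receptor genes called, 0 in each direction, held with no filter, a mean count of at least 50 (39 receptor genes tested), RLE or upper-quartile factors, limma-voom and no robust shrinkage. DESeq2 called 2 higher and 1 lower, and gave Drd1 no p. With the replicate block, edgeR called 0 higher and 1 lower, Htr1b (-0.60, adjusted p = 0.0397), and 285 genes in all (1.49%). Whether the numbers pair the libraries is not known. Leaving out 1 library, 0 to 2 receptor genes were called higher, 2 of them without ad libitum replicate 1 (Htr7 and Grm7), and 0 lower. Over all genes the count was 95, and it was 1395 by DESeq2, 32 by limma-voom, 9 without robust shrinkage, and 0 to 1187 without 1 library: 0 without fasting replicate 1 or 3, and 1187, 45 and 1 when ad libitum replicate 1, 2 or 3 was left out. The share of calls that were higher thus was 30 of 45 without ad libitum replicate 2, 45 of 68 without fasting replicate 2, 17 of 32 by limma-voom, 546 of 1395 by DESeq2 and 7 of 9 without robust shrinkage, against 28 of 95. The median receptor log2 fold change stayed within the spread of the libraries in every alternative, from -0.029 to 0.11.

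Leaving out 1 library changed the sign of 15 of 42 receptor log2 fold changes, and the other 8 alternatives changed none. The ranges over the 6 libraries left out were -0.28 to 0.74 for Adra2b, -0.84 to 0.071 for Adra2c, -0.56 to 0.39 for Adra1d, -0.57 to 0.18 for Cnr1, -0.34 to 0.43 for Drd3, -0.076 to 1.91 for Drd4, -2.68 to 0.65 for Drd1, -0.33 to 0.012 for Grm5, -0.34 to 0.0086 for Chrm2, -1.91 to 0.11 for Chrm4, -0.047 to 0.093 for Oprm1, -0.12 to 0.12 for Htr1a, -0.31 to 0.13 for Htr1f, -0.051 to 0.12 for Htr5a and -0.54 to 0.075 for Htr6. Beyond these fits the cause was not tested. Counting error weighs most where counts are low, as in Drd3, Drd4, Htr5b, Cnr2, Adrb3 and Htr6, each under 100 estimated counts in every library, though how much depth limits these genes was not tested.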
